A study of Lytechinus variegatus with 64 samples.

Results

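Radial nerve and lantern muscle of the sea urchin Lytechinus variegatus were compared across all genes of a deposited table of read counts, using 8 of its 64 libraries. The members were the 4 libraries labelled radial nerve and the 4 labelled lantern muscle, taken by their column names. All came from dissected wild type adults bought from a supplier, with no treatment named, and polyA RNA was sequenced from whole tissue. The labels do not say whether the 4 libraries of a tissue came from separate animals, so each p-value below measures the spread between libraries, which may be technical. Age and the number of animals per library are not given in the labels.

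The radial nerves are the main nerve cords of an echinoderm. A cord runs along each ambulacrum, close to the radial canal of the water vascular system, and sends branches to the tube feet, which carry nerve fibres of their own. The lantern muscles move the teeth and jaws of Aristotle's lantern, the feeding apparatus that hangs behind the mouth and is surrounded at the body surface by the peristomial membrane. Nerve cords are rich in neurons and supporting cells and muscle is rich in contractile fibres, but bulk libraries of either can hold RNA of neighbouring tissues. The gene identifiers of the table come with no gene symbols of neuronal or muscle markers, so none of the marker symbols listed for either tissue could be matched and the tissue labels were not checked against such markers. Genes are therefore described by their identifier, their level and where else in the animal they were high.

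Totals ran from 22588594 to 30705323 counts in the 8 libraries, and 19348 to 21408 genes had at least 1 count. Levels are given as CPM, counts scaled to the size of each library by TMM over all 64 libraries and not divided by gene length, so a level is comparable between libraries but not between genes. The table also held 12 other adult types with 3 or 4 libraries each, whose means are used below to say where else a gene was high. Libraries of the same tissue correlated at 0.802 to 0.867 within nerve and 0.841 to 0.901 within muscle, against 0.749 to 0.837 between the tissues. These coefficients are across genes and describe the libraries only. In a principal component analysis the first component held 30.29% of the variance and separated nerve from muscle. The second held 19.74% and spread the nerve libraries, with nerve replicate 1 at 137.5 and nerve replicate 4 at -86.3. The third held 14.04% and set muscle replicate 4 at 120.9 apart from the other muscle libraries, which lay between -57.3 and -41.6.

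Before the comparison, each library was examined for genes at least 4-fold above the other 7 libraries, since several libraries stood apart from their group. Nerve replicate 1 had 125 such genes, which took 17.5% of its counts. Among the 12 other types 52 of them (41.6%) were highest in axial gland, against 3.89% of the genes tested below, which passed a low-count filter. LOC121429307 led the 125 genes with 54300 CPM in nerve replicate 1, 7360 in replicate 2, 3700 in replicate 3 and 9072 in replicate 4, and muscle libraries held 248 to 3025. Its highest mean among the other types was 9998 CPM, in axial gland, below nerve replicate 1. Nerve replicate 2 had 120 genes at least 4-fold above the other 7 libraries, with 4.30% of its counts. Of these 79 (65.8%) were highest in unfertilized eggs, against 9.87% of all tested genes. LOC121423559 led the 120 genes with 9926 CPM in nerve replicate 2 against 28.6 to 96.5 in the other nerve libraries. It was highest in testis, with a mean of 6732. The next, LOC121423894, reached 8042 CPM in nerve replicate 2 against 1.05 to 98.5 in the other nerve libraries, and the mean in eggs was 36360. Nerve replicate 4 had 323 such genes with 3.28% of its counts. Of these 151 (46.7%) were highest in rectum and 120 (37.2%) in gut, against 5.44% and 11.7% of all tested genes. Nerve replicate 3 had 25 such genes with 0.269% of its counts, the fewest of the 4 nerve libraries.

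Muscle replicate 4 had 209 genes at least 4-fold above the other 7 libraries, with 8.01% of its counts. LOC121406034 led them with 8321 CPM against 75.0 to 150 in the other muscle libraries and at most 8.598 in nerve. Its highest mean among the other types was 269.9 CPM, in peristomial membrane, far below muscle replicate 4. Of the 209 genes, 62 (29.7%) were highest in peristomial membrane and 41 (19.6%) in interambulacral plates, against 5.54% and 3.85% of all tested genes. The other muscle libraries had 21, 16 and 35 genes at least 4-fold above the rest in replicates 1, 2 and 3. In replicate 3, 12 of the 35 (34.3%) were highest in mouth, against 3.91% of all tested genes. These genes and libraries were picked after their values were seen.

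Gene sets of the other tissues, built without any nerve or muscle library, were measured as a share of counts. A gene joined the set of a type when its mean there reached 10 CPM, lay at least 4-fold above each of the other 11 types and had no overlap with their libraries. No axial gland gene met this rule, so the 52 genes of nerve replicate 1 highest there are in no set. The egg set held 45 of the 79 genes of nerve replicate 2 highest in eggs. For nerve replicate 4 the rectum set held 10 of 151 and the gut set 17 of 120. For muscle replicate 4 the peristomial membrane set held 1 of 62 and the plate set 0 of 41. In unfertilized eggs the rule gave 77 genes. They took 0.0942% of counts in nerve replicate 1, 3.08% in replicate 2, 0.101% in replicate 3 and 0.0670% in replicate 4, against 0.0661% to 0.105% in muscle. Only nerve replicate 2 stood above the muscle range by more than its counting error, with a Wilson 95% interval of 3.08% to 3.09%. The share in eggs themselves was 6.66% to 22.2%.

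Counts on the rectum set were uneven within nerve. Its 27 genes took 0.0307%, 0.00330%, 0.0373% and 0.123% of counts in nerve replicates 1 to 4 and 0.00178% to 0.00439% in muscle. Nerve replicates 1, 3 and 4 lay above every muscle library, and replicate 2 lay within the muscle range. In nerve replicate 1 a single gene, LOC121408594, made 7055 of the 7349 counts. With an 8-fold margin for the set, replicate 1 had 0.000514%, within the muscle range of 0.000438% to 0.00313%. The 204 genes of the gut set took 0.0509% to 0.245% in nerve, highest in replicate 4, and 0.0597% to 0.161% in muscle, so the tissues overlapped. Sets of the radial canal, with 0.319% to 0.655% in nerve and 0.331% to 0.728% in muscle, and of the tube foot, with 0.00919% to 0.0185% and 0.0112% to 0.0184%, overlapped as well.

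The sets of tissues around the mouth lay higher in muscle. The 10 genes of the peristomial membrane set took 0.0350%, 0.0638%, 0.0567% and 0.197% of counts in muscle replicates 1 to 4 and 0.000418% to 0.00217% in nerve. In the peristomial membrane itself their share was 0.0864% to 0.188%, so muscle replicate 4 lay above that range. The nerve and muscle groups did not overlap, and the mean log2 share differed by -6.29 (nerve minus muscle). With an 8-fold margin, which left 4 genes, the difference was -2.24 and the groups overlapped, at 1.25e-05% to 0.000338% in nerve and 0.000151% to 0.00195% in muscle, and with a minimum of 50 CPM it was -7.55. The 59 genes of the mouth set took 0.00757%, 0.0454%, 0.236% and 0.0258% in muscle and 0.00201% to 0.00608% in nerve, again without overlap. In the mouth itself their share was 8.96% to 14.7%. Counts on 36 genes highest in coelomic fluid, which had 1 library, made 0.0933% to 0.122% of nerve and 0.0478% to 0.111% of muscle libraries, against 1.70% in the fluid. The part of RNA from these neighbouring tissues in the differences below was not tested. Fewer cells of a type and less RNA per cell cannot be told apart in such bulk libraries.

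**Figure D1:**
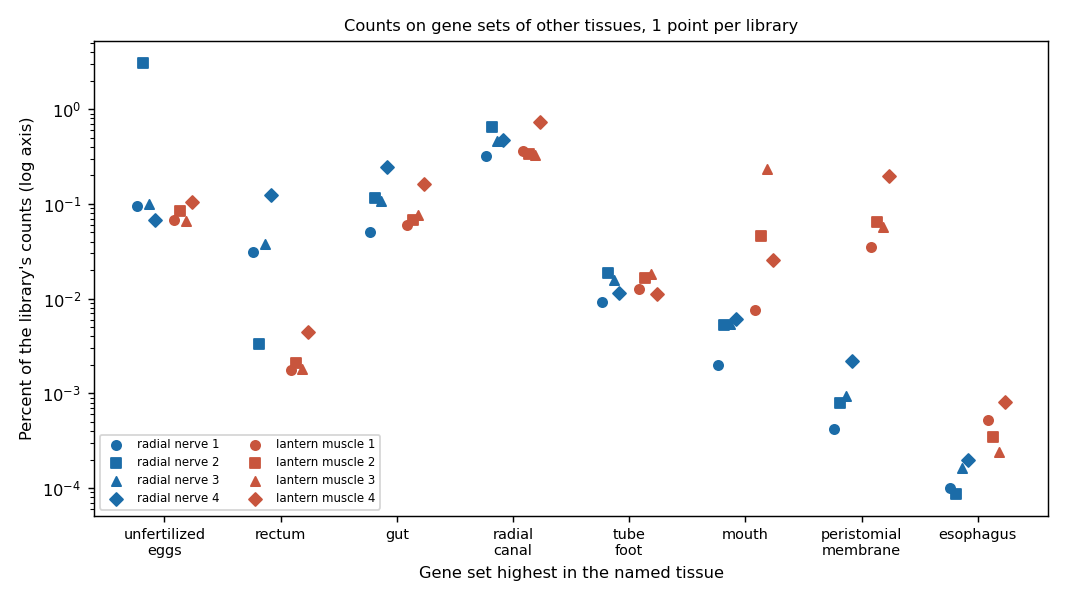
Share of each library's counts, in percent on a log axis, on genes that are highest in the tissue named below the axis; each point is 1 library of radial nerve (blue) or lantern muscle (red), and the symbol shape gives the replicate number. Nerve replicate 2 stands at 3.08% on the egg set, nerve replicates 1, 3 and 4 lie above muscle on the rectum set, and muscle lies above nerve on the mouth, peristomial membrane and esophagus sets; with an 8-fold margin the last 2 of these overlap, and with a minimum of 50 CPM the esophagus set does.

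Across the 17442 genes tested with edgeR's quasi-likelihood test, 195 genes were higher in radial nerve and 42 were lower. Calls required an adjusted p (Benjamini-Hochberg) under 0.05 together with a log2 fold change of 1 or more in either direction. That is 1.12% of tested genes higher, 0.241% lower and 1.36% in either direction, while 2872 genes had an unadjusted p under 0.05. Over the tested genes the log2 fold change had a median of 0.02. Among the 195 higher genes the median absolute log2 fold change was 3.58, with a range of 1.58 to 11.43, and among the 42 lower genes it was 3.35, with a range of 1.55 to 11.60. Over all tested genes the median absolute value was 0.49. The higher genes took 2.65% to 5.38% of counts in nerve and 0.381% to 0.531% in muscle, and the lower genes took 0.143% to 0.237% in nerve and 1.27% to 2.20% in muscle.

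Separation of the libraries was more common than a call. Every nerve library was above every muscle library for 1033 tested genes, which is 5.92%, and every muscle library was above every nerve library for 735, which is 4.21%. All 237 called genes were among them. The biological coefficient of variation in the fit was 0.652.

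Without nerve replicates 1 and 2 together, 89 genes were higher and 6 lower of 19035 tested, or 0.468% and 0.0315%. Of the 195 higher genes 70 were called again, and of the 42 lower genes 4 were. Since no called gene overlapped between the tissues, leaving out libraries could not turn its direction. Leaving out nerve replicate 1 alone gave 202 higher and 25 lower genes, of which 143 and 15 were shared with the full set. Without nerve replicate 2 alone there were 104 and 15, with 96 and 11 shared. A total of 53 higher and 2 lower genes were called with all libraries and in each of these 3 reduced comparisons.

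Leaving out most of the other libraries lowered the counts as well. Without nerve replicate 3 there were 72 higher and 9 lower genes, and without nerve replicate 4 there were 79 and 6. Leaving out muscle replicate 1, 2 or 3 gave 75, 54 and 74 higher genes and 18, 11 and 16 lower genes. Without muscle replicate 4, there were 214 higher and 120 lower genes. In all 8 comparisons that left out 1 library, 46 higher and 4 lower genes were called. Without nerve replicates 2 and 4, which held the most counts of the egg, gut and rectum sets, there were 52 higher and 5 lower genes, 50 and 2 of them shared with the full set. That pair was chosen after the data were seen.

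**Figure D2:**
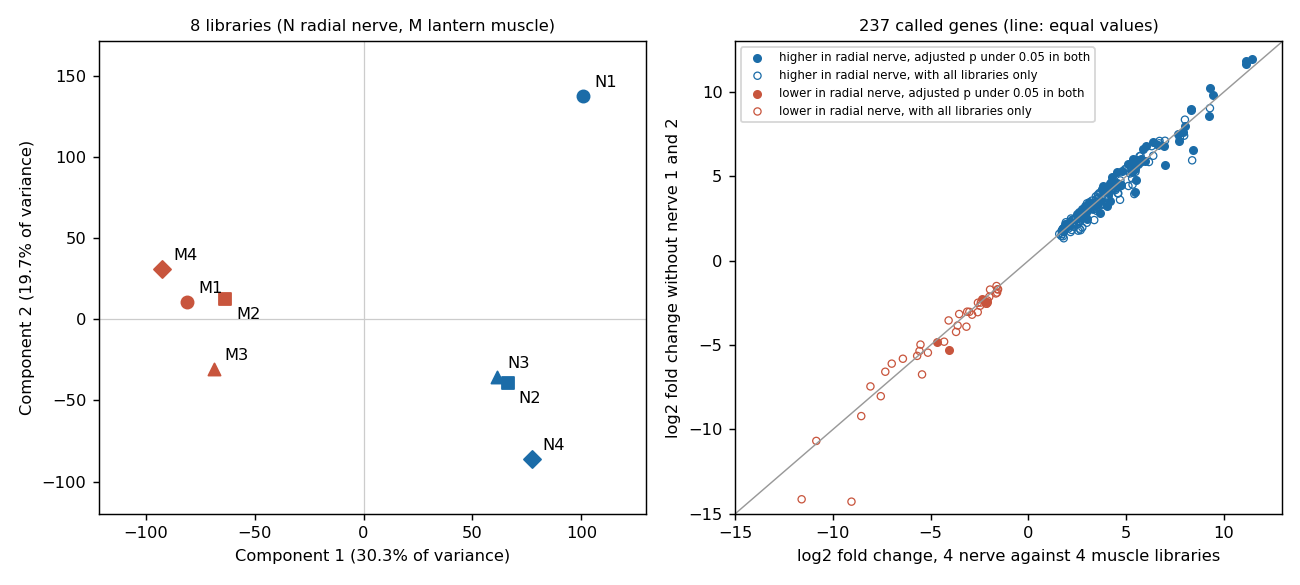
Left, the 8 libraries on the first and second principal components of log2 CPM (N, radial nerve; M, lantern muscle; the digit is the replicate). Right, the log2 fold change of the 237 called genes with all 8 libraries (horizontal axis) against that without nerve replicates 1 and 2 (vertical axis), filled where the adjusted p was under 0.05 in both. Component 1 separates the tissues, nerve replicate 1 stands apart on component 2, and 70 of 195 higher and 4 of 42 lower genes are filled.

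**Figure D3:**
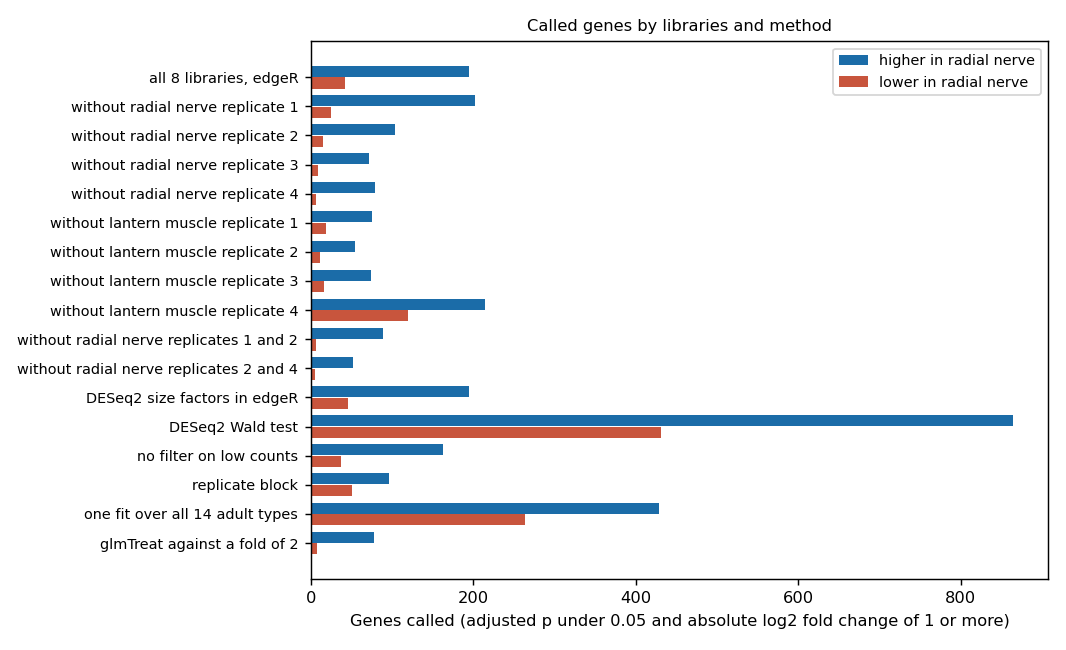
Number of genes called higher (blue) and lower (red) in radial nerve with all 8 libraries and under each other choice of libraries or method, on a linear axis from 0. Removing any 1 library other than nerve replicate 1 or muscle replicate 4 leaves 54 to 104 higher genes, and the DESeq2 Wald test calls 865 higher and 431 lower.

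Named genes had to be called in the same direction with and without nerve replicates 1 and 2, be at 10 CPM or more on average in the higher tissue and show no overlap between the tissues. The rule left 68 higher and 4 lower genes, and it names the 6 with the largest fold change and the 6 with the highest level in each direction. This gives 11 higher and 4 lower genes. The sources used here give none of them a name or function.

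LOC121410697 and LOC121410696 are neighbours in the gene order of the RefSeq table with no gene between them, and both were close to silent in muscle. LOC121410697 had 104, 15.1, 215 and 109.8 CPM in nerve replicates 1 to 4 and 0.171, 0, 0 and 0 in muscle replicates 1 to 4. LOC121410696 had 70.2, 28.5, 114 and 85.0 CPM in nerve and 0.171, 0.106, 0 and 0.130 in muscle. Nerve replicate 2 was the lowest nerve library for both, and no nerve library came near the muscle values. The fitted log2 fold changes were 11.43 ± 1.36 (SE, adjusted p = 0.00849) and 9.47 ± 0.80 (adjusted p = 0.00226). For LOC121410697 only 4 reads fell in muscle, all in 1 library, and the fitted value depends on the small count that edgeR adds. The ratio of summed counts, each scaled by the summed library sizes, was 3330 with a 95% counting interval of 1300 to 12200.

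Outside the nerve the pair was high in the rectum, with means of 306 ± 43.2 CPM (SD, n = 3) for LOC121410697 and 72.3 ± 27.9 for LOC121410696. In axial gland the means were 79.0 ± 153 and 22.4 ± 43.2 CPM (SD, n = 4), with a spread larger than the mean. For LOC121410696 the nerve mean of 74.4 ± 35.6 CPM (SD, n = 4) and the rectum mean did not differ beyond their spread. Near-identical copies share reads, and the sequences of the 2 genes were not compared, so their counts may be partly exchanged.

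LOC121406007 was near 0 in most types other than nerve. It had 14.4, 38.8, 51.9 and 83.0 CPM in nerve replicates 1 to 4, and muscle held 2 reads in replicate 2 and none in the others. The ratio of summed counts, scaled in the same way, was 2920 with a 95% counting interval of 808 to 24100. The fitted log2 fold change was 11.15 ± 0.97 (SE, adjusted p = 0.00226). Its lowest nerve library exceeded every library of the other 12 types, the next highest being axial gland replicate 2 with 8.89 CPM.

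LOC121425527 followed the same order with different libraries on top. Nerve replicates 1 to 4 held 105, 25.9, 43.8 and 20.4 CPM, highest in replicate 1, and muscle held 0.171, 0.0796, 0.0757 and 0. The log2 fold change was 9.23 ± 0.93 (SE, adjusted p = 0.00410), and 8.57 without nerve replicates 1 and 2. The highest library of another type was rectum replicate 2 with 9.602 CPM, under the lowest nerve library.

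LOC121425399 and LOC121415619 varied widely among the nerve libraries. LOC121425399 had 6.97, 250, 792 and 569 CPM in nerve and 0.0854, 0.319, 0.151 and 0.130 in muscle. Nerve replicate 1 lay far below the other nerve libraries and still above all muscle libraries, and the log2 fold change was 11.14 ± 1.48 (SE, adjusted p = 0.0116). The next type was radial canal with 64.8 ± 55.8 CPM (SD, n = 4), while tube foot and ovary had none. LOC121415619 had 5.66, 8.48, 93.1 and 556 CPM in nerve and 0, 0.478, 0.416 and 0.130 in muscle.

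Nerve replicate 4 carried most of the nerve signal of LOC121415619, which belongs to the rectum set and had 11020 ± 3989 CPM in the rectum (SD, n = 3). Its log2 fold change of 9.31 ± 1.86 (SE) had an adjusted p of 0.0485, and without nerve replicate 4 it was 7.07 with an adjusted p of 0.0670. It was called in 6 of 16 other settings, and was lost on leaving out any 1 library but nerve replicate 1. Its muscle libraries were all under 1 CPM.

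The other 5 genes named for their nerve level were also present in muscle. LOC446192 had 2239, 4867, 18800 and 6480 CPM in nerve replicates 1 to 4 and 430.1, 649.5, 559.5 and 628.3 in muscle. Nerve replicate 3 was highest by far, and the lowest nerve library was more than 3 times the highest muscle library. The log2 fold change was 3.84 ± 0.67 (SE, adjusted p = 0.0323) and 2.98 without nerve replicate 3, but the gene passed in only 7 of 16 other settings. Its levels in the other 12 types ranged from 263 ± 57.7 CPM in tube foot to 1558 ± 2036 in axial gland (SD, n = 4 each).

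LOC121418835 had 1589, 783, 1886 and 1281 CPM in nerve and 40.4, 37.2, 22.7 and 14.2 in muscle. All nerve libraries lay far above all muscle libraries, with a log2 fold change of 5.61 ± 0.52 (SE, adjusted p = 0.00252), and the call held in all 16 other settings. Tube foot with 969 ± 591 CPM and esophagus with 817 ± 639 (SD, n = 4 each) followed nerve with 1385 ± 471, and these neighbours in the order overlapped within their spread.

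LOC121427979 showed a narrow muscle range. It had 1367, 451, 871 and 601 CPM in nerve and 54.2, 69.0, 59.4 and 69.0 in muscle, a log2 fold change of 3.73 ± 0.42 (SE, adjusted p = 0.00721). Tube foot came next with 312 ± 156 CPM, then esophagus with 303 ± 145 (SD, n = 4 each), against 823 ± 402 in nerve, and the ranges of 1 SD around the nerve and tube foot means overlapped.

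LOC121426359 had 1156, 679, 517 and 397 CPM in nerve and 29.6, 38.7, 37.4 and 49.5 in muscle. Its log2 fold change was 4.16 ± 0.44 (SE, adjusted p = 0.00473), and 3.52 without nerve replicates 1 and 2, which were its highest libraries. Axial gland had 757 ± 947 CPM (SD, n = 4), a mean above that of nerve with a spread that covers it.

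LOC121415639 had its highest levels in other tissues. It had 134, 1019, 499 and 620 CPM in nerve and 54.0, 22.1, 33.5 and 22.4 in muscle, a log2 fold change of 4.11 ± 0.64 (SE, adjusted p = 0.0201). It was called in 10 of 16 other settings and lost without nerve replicate 3 or 4, without muscle replicate 2 or 3, without nerve replicates 2 and 4 together and with the replicate block (adjusted p = 0.114). Radial canal with 2008 ± 1441 CPM (SD, n = 4), peristomial membrane with 1293 ± 134 (SD, n = 3), tube foot with 1231 ± 346 and interambulacral plates with 672 ± 167 (SD, n = 4 each) all had higher means than nerve, and muscle ranked 11 of the 14 types.

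Of the 4 named genes lower in nerve, LOC121429195 was called in all 16 other settings. It had 31.9, 30.8, 21.9 and 31.4 CPM in muscle replicates 1 to 4 and 0.468, 1.91, 1.35 and 0.795 in nerve. The muscle libraries lay close together and well above nerve, with a log2 fold change of -4.66 ± 0.47 (SE, adjusted p = 0.00410) and -4.79 without nerve replicates 1 and 2. Muscle was only the fifth highest type: tube foot had 893 ± 443 CPM and interambulacral plates 226 ± 57.6 (SD, n = 4 each), and mouth had 341 ± 134 (SD, n = 3).

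LOC121427724 was highest in muscle of all 14 types. It had 34.8, 67.6, 34.2 and 46.8 CPM in muscle and 1.496, 7.126, 1.352 and 1.012 in nerve. Nerve replicate 2 stood above the other nerve libraries, and the log2 fold change moved from -4.05 ± 0.69 (SE, adjusted p = 0.0297) with all libraries to -5.31 without nerve replicates 1 and 2. It was called in 9 of 16 other settings and lost without nerve replicate 1, 3 or 4, without muscle replicate 1, 2 or 3 and against a fold of 2 (adjusted p from 0.0579 to 0.0820). Every muscle library exceeded every library of the other 12 types, the highest of which was radial canal replicate 2 with 27.8 CPM.

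LOC121431622 had 158, 243, 199 and 178 CPM in muscle and 26.0, 42.4, 38.8 and 44.0 in nerve, a log2 fold change of -2.35 ± 0.28 (SE, adjusted p = 0.00900). LOC121412150 had 79.1, 73.6, 79.0 and 48.0 CPM in muscle and 23.76, 14.17, 11.97 and 14.23 in nerve, a log2 fold change of -2.10 ± 0.32 (SE, adjusted p = 0.0174). The second gene was called in 8 of 16 other settings and lost without nerve replicate 2, 3 or 4, without muscle replicate 1, 2 or 3, without nerve replicates 2 and 4 together and against a fold of 2. It was highest in muscle of the 14 types, followed by peristomial membrane with 57.6 ± 6.44 CPM (SD, n = 3), and the first was highest in radial canal with 516 ± 767 (SD, n = 4).

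**Figure D4:**
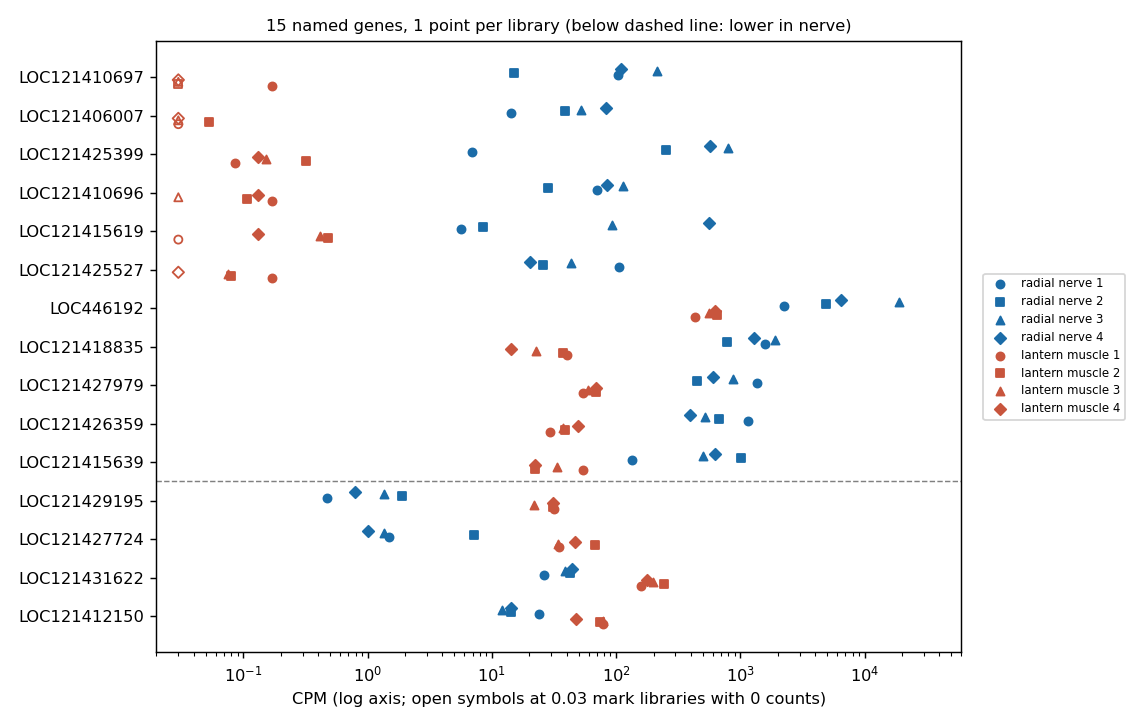
CPM of the 15 named genes in each library on a log axis, 1 point per library, blue for radial nerve and red for lantern muscle, with open symbols at the left for libraries with 0 counts. The 11 genes above the dashed line are higher in nerve and the 4 below it lower, and in none do the tissues overlap.

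Outside the rule, 7 genes were at 10 CPM or more in every nerve library and under 1 CPM in every muscle library, and 1 gene showed the reverse. They were picked after their values were seen. LOC121410848 had 341, 74.2, 177 and 122 CPM in nerve and 0.683, 0.850, 0.832 and 0.585 in muscle, with a log2 fold change of 7.93 ± 0.60 (SE, adjusted p = 0.00140). Tube foot was its next type with 56.8 ± 4.26 CPM (SD, n = 4), and every nerve library exceeded every library of the other types. LOC121415676 was lower in level, with 11.6 to 31.4 CPM in nerve and 0.130 to 0.256 in muscle, and LOC121419418 had 11.6 to 30.2 and 0 to 0.876, and was not called without nerve replicates 1 and 2 (adjusted p = 0.135). The other 4 of the 7 genes were LOC121406007, LOC121425527, LOC121410696 and LOC121410697, named above.

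The reverse gene was LOC121428384, which had 12.2, 13.8, 1133 and 44.4 CPM in muscle and 0 to 0.477 in nerve. It was not called, with an adjusted p of 0.0501, and muscle replicate 3 was far above the others. Mouth held 17820 ± 8728 CPM of it (SD, n = 3).

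The most abundant genes of muscle that were lower in nerve were not called without nerve replicates 1 and 2. LOC121424289 had 7282, 10730, 6985 and 7577 CPM in muscle and 1422, 1910, 613 and 1400 in nerve, a log2 fold change of -2.59 ± 0.44 (SE, adjusted p = 0.0307 with all libraries and 0.0889 without those 2). Radial canal had a mean of 7609 CPM, close to the muscle mean of 8144. LOC121432059 had 5077, 2576, 5117 and 217 CPM in muscle and 25.4 to 91.7 in nerve, with a log2 fold change of -5.69 ± 0.98 (SE, adjusted p = 0.0311). Its muscle replicate 4 lay far below the other muscle libraries.

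Over the 14 adult types, 78 of the 195 higher genes had their highest mean in nerve and 21 of the 42 lower genes had theirs in muscle. Of all tested genes, 3.58% were highest in nerve and 3.99% in muscle, and a call itself favours genes high in the tissue concerned. Muscle was the lowest type for 32 of the 195 higher genes, against 2.32% of all tested genes. For 16 of the higher genes every nerve library exceeded every library of the other 12 types, among them LOC121422327 with 245, 263, 308 and 212 CPM in nerve, 4.22 to 7.76 in muscle and at most 103 in any library elsewhere. It had the lowest adjusted p of all tested genes, 0.000619, at a log2 fold change of 5.47 ± 0.33 (SE). For 5 of the lower genes every muscle library exceeded every other library, among them LOC121409219 with 92.6, 54.9, 138 and 262 CPM in muscle, 3.94 to 16.9 in nerve and at most 12.6 elsewhere. Without nerve replicates 1 and 2, 10 of the 16 and 1 of the 5 genes were called, and LOC121409219 was not (adjusted p = 0.135). Genes above every library of the other types were not counted over all tested genes.

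Most called genes were shared with other tissues. A type was counted as sharing a gene when its mean CPM was at least 25% of the nerve mean, types far above nerve included. Of the 195 higher genes, 10 were shared with none of the 12 other types, 38 with 1 to 3, 96 with 4 to 8 and 51 with 9 to 12. The median absolute log2 fold change was 6.96 for the first of these classes and 2.69 for the last. Of the 42 lower genes, set against the muscle mean in the same way, 7 were shared with none, 9 with 1 to 3 types, 17 with 4 to 8 and 9 with 9 to 12. These classes were not counted over all tested genes. The called genes can therefore not be said to be more or less shared than other genes.

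The type other than nerve or muscle in which a called gene was highest was read from libraries that the comparison did not use. Tube foot was that type for 63 of the 195 higher genes, or 32.3%, against 5.85% of all tested genes. Axial gland came second with 28 genes, or 14.4% against 3.89%. Ovary was that type for 6.15% of the higher genes against 27.5% of all tested. Without nerve replicates 1 and 2, 89 genes were called higher. Of these, 18.0% were highest in tube foot, 20.2% in axial gland and 19.1% in rectum, so the lead of tube foot ended there. That list rests on nerve replicates 3 and 4. By Spearman correlation across genes, nerve replicate 4 was closest to axial gland (0.903) and then rectum (0.857), with radial canal at 0.808. Nerve replicates 1, 2 and 3 were closest to radial canal (0.854, 0.847 and 0.843), with axial gland at 0.816, 0.817 and 0.803. In those libraries rectum lay at 0.698 to 0.734. Whether this shaped the list was not tested. Among the 52 genes called higher without nerve replicates 2 and 4, tube foot led with 34.6%. Peristomial membrane was the type for 11 of the 42 lower genes, or 26.2% against 5.54% of all tested genes, and radial canal for 7, or 16.7% against 9.24%. Without nerve replicates 1 and 2 peristomial membrane was the type for 1 of the 6 lower genes while radial canal led with 3, and without nerve replicates 2 and 4 for 0 of 5. These are counts without a test, and the called genes were chosen by a threshold that favours abundant genes with little spread.

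**Figure D5:**
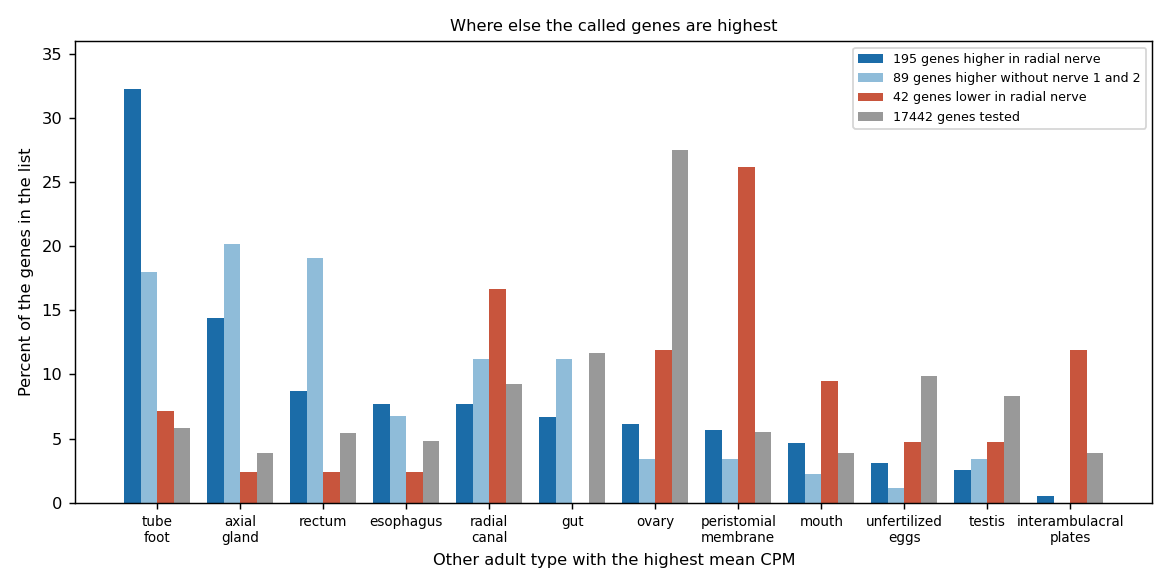
Percent of the genes of each list (bars from 0) whose highest mean among the 12 adult types other than radial nerve and lantern muscle lay in the type below the axis. Tube foot leads for the 195 genes higher in nerve at 32.3% and peristomial membrane for the 42 lower genes at 26.2%, against 5.85% and 5.54% of all 17442 tested genes.

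Few members of the tissue sets entered the test, and few of those were called. Called higher were 2 of 9 tested rectum set genes, 2 of 50 egg set genes, 3 of 112 gut set genes and 3 of 62 radial canal set genes. Of all tested genes 1.12% were called higher. The ovary set had 1 higher and 2 lower genes of 1053. Called lower were 1 of 6 peristomial membrane set genes and 1 of 23 mouth set genes, against 0.241% of all tested genes. Genes nearly absent from 1 tissue passed the low-count filter only through the other tissue, where they were higher. The shares of these sets and of all tested genes are therefore not a like comparison. No gene of the esophagus, plate, testis or tube foot sets was called, of 2, 7, 43 and 32 tested. LOC121408594 of the rectum set had 329.9, 8.27, 252 and 103 CPM in nerve and 0.0531 to 1.66 in muscle, with a log2 fold change of 8.01 ± 1.42 (SE, adjusted p = 0.0336). LOC121423994 of the peristomial membrane set had 307, 486, 499 and 10.3 CPM in muscle and 0.561 to 7.88 in nerve, with a log2 fold change of -6.42 ± 1.24 (SE, adjusted p = 0.0427, and 0.181 without nerve replicates 1 and 2).

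Some called genes lay beside each other in the order of the tested genes. Of the 195 higher genes, 20 had a nearest tested neighbour on either side that was also called higher, which is 10.3%, against 2.21% of all tested genes with such a neighbour. Of the 42 lower genes 0 had a lower neighbour, against 0.477% of all tested genes. With the 2 nearest on each side the shares were 12.8% against 4.25% for the higher genes and 4.76%, or 2 genes, against 0.959% for the lower genes. The pairs include LOC121410180 and LOC121410181, with log2 fold changes of 2.38 and 2.34 and 1 untested gene between them, and LOC121430596 and LOC121430606 with 4.62 and 4.11. Neighbours can be copies that share reads, which was not examined. By biotype, 93.8% of the higher genes and 90.5% of the lower genes were protein coding, against 93.3% of all tested genes, and 10 higher and 4 lower genes were long noncoding RNAs. The 24 rows counted as mitochondrial RNA took 0.442% to 1.51% of counts in nerve and 0.538% to 3.10% in muscle, where replicate 4 was lowest. Whether these rows cover all mitochondrial genes was not examined.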

How the data were processed

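PolyA RNA of 64 libraries was sequenced, and the authors deposited raw read counts per gene in 1 table. Per the submitters' processing notes, STAR, featureCounts and DESeq2 were named without versions or roles; the genome build is not given in the sources used here. Of 25890 lines, 3 with joined identifiers or no counts were left out, and all 25887 other genes matched the RefSeq table of Lvar_3.0, used for biotypes and gene order only. The 8 nerve and muscle libraries were tested with edgeR 4.0.16 (quasi-likelihood, TMM, filterByExpr; R 4.3.3, limma 3.58.1), with DESeq2 1.42.0 as an alternative. The fit was also run on counts simulated from its own means and dispersions. Those counts held no library with genes of its own, so that run does not test how the fit handles such libraries. Tables were made in Python 3.11.15. No difference below 1 on the log2 scale was called. The SE beside a log2 fold change is its absolute value divided by the square root of the quasi-likelihood F. It is an approximation that edgeR does not report, and is least certain where 1 tissue has few reads. Folds of means had 0.5 CPM added. Intervals on shares are Wilson 95% intervals; these and the floor of 3 counts for a 0 cover counting error only. Alternatives were other library choices, size factors, filters, a replicate block, all 14 adult types in 1 fit and glmTreat. Named genes were called with and without nerve replicates 1 and 2, had no overlap between tissues and a mean of at least 10 CPM in the higher tissue, and were the 6 of largest fold change and the 6 of highest level per direction; other genes in the text were chosen after their values were seen. The libraries, gene lists and tests were chosen with earlier results of these data known. Planned lists by protein pattern and promoter motif were not run, since no protein or promoter sequences were used here.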

Additional observations from a re-analysis of the deposited data

Results flagged for a closer look

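Among 64 groups of 4 values examined, 11 had a library whose gap to its nearest neighbour, as a share of the group's range, passed Dixon's 95% critical value for 4 values. Chance flags about 1 in 20 such groups where the values are independent and normally distributed. The CPM, shares and counts here were not checked for that, so 11 of 64 cannot be set against that rate. For named genes these were muscle replicate 1 for LOC121410697 (0.171 CPM against 0 in the others), muscle replicate 2 for LOC121406007 (0.0531 CPM), nerve replicate 4 for LOC121415619 (556.4 CPM), muscle replicate 3 for LOC121429195 (21.9 CPM, the lowest) and nerve replicate 2 for LOC121427724 (7.13 CPM). The first pair rest on 4 and 2 reads.

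For shares of counts, nerve replicate 2 stood apart on the egg set (3.08%) and muscle replicate 3 on the mouth set (0.236%). Muscle replicate 4 stood apart on the gut set (0.161%), the radial canal set (0.728%) and the rectum set (0.00439%), and had 209 genes at least 4-fold above the other 7 libraries.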

How the results depend on the processing

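The naming rule itself required a call without nerve replicates 1 and 2 and no overlap between the tissues, which fixes the direction of the named genes under any choice of these libraries. All 15 stayed called under DESeq2 size factors, the DESeq2 Wald test and no filter on low counts, 10 to 14 with 1 library left out, 9 without nerve replicates 2 and 4, 12 with the replicate block, 14 in 1 fit over all 14 types and 11 against a fold of 2. The genes called higher numbered 195, and between 54 and 214 with 1 library left out. The genes called lower numbered 42, and between 6 and 120 with 1 library left out, the highest count coming without muscle replicate 4. Without nerve replicates 1 and 2 the counts were 89 and 6, and without nerve replicates 2 and 4 they were 52 and 5. The DESeq2 Wald test called 865 and 431 (947 genes without an adjusted p), of which 194 and 41 were shared with the full set. The fit over all 14 types called 429 and 263, of which 149 and 28 were shared. Against a fold of 2, glmTreat called 78 and 8. DESeq2 size factors gave 195 and 45, and no filter gave 163 and 37.

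The labels do not say whether the same replicate number pairs a nerve and a muscle library. The correlations of deviations between same-numbered nerve and muscle libraries were 0.056, -0.187, -0.076 and -0.057. Only nerve replicate 1 correlated best with its own number. With 4 libraries per tissue, several of them set apart by their own genes, these values cannot exclude a pairing. With the replicate block 96 genes were called higher and 50 lower, of which 86 and 18 were shared with the full set. The share of higher genes that were highest in tube foot was 32.3%, and 18.0% without nerve replicates 1 and 2. With the 2 nearest genes on each side, the share of higher genes with a called neighbour was 12.8% (4.25% of all tested genes), against 10.3% (2.21%) with the nearest. Depth limits mostly the genes with few reads: the fold change of LOC121406007 rests on 2 muscle reads. The cause of each change was not tested.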

Other observations

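In the 4 spine libraries, which were single libraries and entered no comparison, LOC121429195 was higher than in lantern muscle. It had 2138 CPM in green spine, 2278 in red spine, 2526 in white spine and 829.5 in mixed color spines, against 893 ± 443 in tube foot (SD, n = 4). In the other 4 single libraries it had 3.90 to 10.2 CPM, below the muscle mean of 29.0. LOC121415639 had 1429 CPM in green spine, 1051 in red, 1231 in white and 641 in mixed color spines. LOC446192, the most abundant named gene in nerve, had 3804 CPM in the stage 1 ovary, 2562 in coelomic fluid and 1611 in the testis at 4.5 months post fertilization. LOC121431622 had 1269 CPM in that testis and 811 in the stage 1 ovary. Each of these values is from a single library and carries no estimate of spread.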
